A study of Homo sapiens with 6 samples.

Results

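The genes described here encode the coat of caveolae, the small flask-shaped pits of the plasma membrane, together with the proteins that hold the neck of the pit. The set holds 9 genes, CAV1, CAV2, CAV3, CAVIN1, CAVIN2, CAVIN3, EHD2, PACSIN2 and PACSIN3, among 19775 genes measured, and 19 probe sets among 54613. The set was proposed with log2 differences between the SY5Y-TR1 and SH-SY5Y arrays already in view. A probe set was taken as a member's when the platform annotation gave it a single gene symbol and that symbol, current or earlier, was a member. Each gene stands by its brightest probe set, chosen by the highest mean over the 6 arrays, and all other probe sets are given beside it. For CAV1, whose probe sets lay close together by that measure, the chosen one averaged 8.61 on the log2 scale and the other 8.18. For CAV2 these means were 7.22 for the chosen probe set and 6.92 for the next. All 9 genes were measured, and no filter on low values was applied.

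Gene expression had been profiled on Affymetrix U133 Plus 2.0 arrays in SY5Y-TR1 cells and in parental SH-SY5Y cells, with 3 arrays in each line. SH-SY5Y is a human neuroblastoma (NB) line, and per the labels both lines carry the ALK F1174L mutation, an activating change in the ALK receptor tyrosine kinase. SY5Y-TR1 is a single resistant subclone that the study expanded from SH-SY5Y cells exposed to rising doses of the ALK inhibitor TAE684, and it was kept in medium with 1 μM TAE684, whereas SH-SY5Y was kept in medium alone. The resistant state, the presence of the drug and the choice of a single subclone therefore cannot be told apart on these arrays. The labels call the arrays biological replicates without describing the cultures, so the p-values measure the spread between these samples, which may be technical.

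Caveolins are hairpin proteins that insert into the inner leaflet of the membrane and assemble with cholesterol into a scaffold. CAV1 is the main caveolin outside muscle, CAV2 assembles with it, and CAV3 is the form of muscle. The cavins are cytosolic coat proteins that bind this scaffold. CAVIN1 is required for caveolae to form, and CAVIN2 and CAVIN3 join its complexes. The ATPase EHD2 encircles the neck and holds the pit at the surface, and the F-BAR proteins PACSIN2 and PACSIN3 bend the membrane there. Neurons and neuroblasts are known for few caveolae, while endothelial cells, adipocytes, muscle and fibroblasts are rich in them.

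All values below are on the log2 scale and were deposited after robust multi-array average (RMA) processing. Array medians lay between 5.57 and 5.59. Arrays of a line correlated at 0.997 to 0.998 over probe sets and arrays of different lines at 0.959 to 0.960 (Pearson's r). Differences were fitted with limma, and a call needed both a Benjamini-Hochberg adjusted p under 0.05 and a change of at least 2-fold. To judge which signals were too dim to read, 41 genes of unrelated tissues were averaged over the arrays, and the 90th percentile of their means, 6.47, serves as the background level, with 4 of them above it. For a line that never exceeded this level, the fold is a lower bound, computed from the other line's mean over the level and written as at least so many fold. Where neither line exceeded it, no fold is given. Levels are compared between lines for the same probe set and not between genes. Of 11 measured markers of noradrenergic NB cells, 4 were above the background level on every SY5Y-TR1 array and 8 on every SH-SY5Y array. PHOX2A, HAND2, GATA3 and ISL1 were above it on all 6 arrays. Of these, PHOX2A was 3.06-fold and GATA3 4.24-fold lower in SY5Y-TR1, both called, and HAND2 and ISL1 were lower by less than 2-fold. The other markers called lower were DDC (at least 28.5-fold), CHGA (12.9-fold), CHGB (at least 12.7-fold) and DBH (at least 6.89-fold, 1 of its 2 probe sets called). The CHGA value is no exact size, since only 1 of its SY5Y-TR1 arrays lay above the background level. TH, which encodes the first enzyme of catecholamine synthesis, and ALK itself lay under it on all 6 arrays. ALK read 4.96 ± 0.11 in SY5Y-TR1 against 5.88 ± 0.14 in SH-SY5Y (SD, n = 3), and the lines did not overlap. A signal under the level does not show that a gene is silent, and the paper reports ALK protein in western blots.

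In SY5Y-TR1 cells, 4 of the 9 genes were called higher, CAV1, CAV2, CAVIN1 and CAVIN2, and none was called lower. Over all 19775 genes, 11.4% were called, 5.36% as higher and 5.99% as lower. The set was put together with earlier results of these arrays known, so its count is a description and no test was made over it. The median log2 fold change of the 9 genes was 0.76, against 0.04 over all genes. Another 4 members, CAVIN3, EHD2, PACSIN2 and PACSIN3, had an adjusted p under 0.05 from limma but a fitted change under 2-fold. At any fold, 52.8% of all genes had an adjusted p under that limit and 28.5% had one as higher in SY5Y-TR1. For each member except CAV3 the arrays of the lines did not overlap, and the same held for 59.8% of all genes. On a bulk array, a larger share of cells that express a gene and more of its RNA per cell cannot be told apart. By the background level, CAV1, CAV2 and CAVIN2 were above it on every SY5Y-TR1 array and on no SH-SY5Y array, CAVIN1, EHD2, PACSIN2 and PACSIN3 were above it on all 6 arrays, and CAV3 and CAVIN3 on none. The plot of the 9 genes by array shows these patterns.

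**Figure D1:**
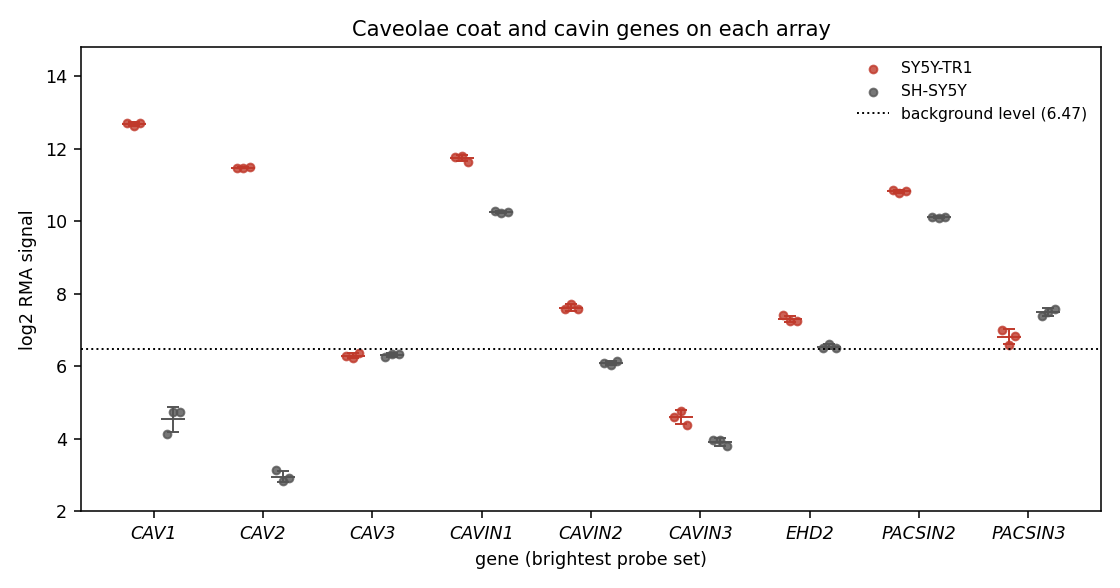
Log2 RMA signal (y axis) of the brightest probe set of each caveolae coat and cavin gene (x axis) on the 3 SY5Y-TR1 arrays (red) and the 3 SH-SY5Y arrays (grey), with the mean and SD as bars and the background level of 6.47 as a dotted line. CAV1 and CAV2 lie far above that line in SY5Y-TR1 and under it in SH-SY5Y, whereas CAVIN1 and PACSIN2 lie above 10 in both lines.

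CAV1, which encodes the main structural protein of the caveolar coat, had log2 signals of 12.71, 12.63 and 12.72 on the SY5Y-TR1 arrays, against 4.14, 4.73 and 4.75 on the SH-SY5Y arrays. All SY5Y-TR1 arrays were high and all SH-SY5Y arrays lay under the background level, with 7.88 log2 units between the nearest arrays of the lines. The gene was at least 74.3-fold higher in SY5Y-TR1 (limma, adjusted p = 5.46e-08), with a fitted log2 fold change of 8.15 (standard error 0.16). The SH-SY5Y side of that value lies under the background level, so it is no exact size. The other CAV1 probe set read 13.13, 13.09 and 13.18 in SY5Y-TR1 and 3.46, 3.04 and 3.15 in SH-SY5Y. It was at least 101-fold higher, so the probe set that the brightness rule chose gave the smaller bound.

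CAV2, the partner that assembles with CAV1, had log2 signals of 11.47, 11.46 and 11.49 in SY5Y-TR1, against 3.13, 2.83 and 2.92 in SH-SY5Y. It was at least 32-fold higher in SY5Y-TR1 (limma, adjusted p = 3.53e-09). The fitted log2 difference was 8.51 (standard error 0.08), which likewise rests on SH-SY5Y signals under the background level. The 3 SY5Y-TR1 arrays agreed to an SD of 0.01, and no SH-SY5Y array came near the background level. A second CAV2 probe set was called as well, at 10.53, 10.55 and 10.59 in SY5Y-TR1 and 3.60, 3.01 and 3.23 in SH-SY5Y, which is at least 16.9-fold. The third CAV2 probe set lay under the background level on all 6 arrays, at 5.37 ± 0.19 in SY5Y-TR1 against 4.69 ± 0.15 in SH-SY5Y (SD, n = 3), and was not called. With all 3 averaged, the CAV2 log2 fold change was 5.49, still called.

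CAV3, the caveolin of muscle, read 6.29, 6.22 and 6.37 in SY5Y-TR1 and 6.25, 6.34 and 6.34 in SH-SY5Y. Its arrays overlapped and all lay under the background level, so no fold is given, and a difference in CAV3 was not detectable at this signal (log2 difference -0.02 ± 0.05 SE, limma adjusted p = 0.826).

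Promoter sequences are printed for CAV1, CAV2 and CAVIN2, the called members with an entry in the RefSeq promoter table of GRCh38.p14, to show the letters that precede genes whose signal differed. Each is the 250 bases before the most upstream start site listed, on the gene's own strand, at chr7:116524759-116525008 (plus) for CAV1, chr7:116499488-116499737 (plus) for CAV2 and chr2:191847089-191847338 (minus) for CAVIN2. Capitals mark every match to the letters searched on both strands, which here were GGGCGG, the GC box of SP factors, or its complement CCGCCC, and GGAATG, the letters bound by TEAD factors.
CAV1: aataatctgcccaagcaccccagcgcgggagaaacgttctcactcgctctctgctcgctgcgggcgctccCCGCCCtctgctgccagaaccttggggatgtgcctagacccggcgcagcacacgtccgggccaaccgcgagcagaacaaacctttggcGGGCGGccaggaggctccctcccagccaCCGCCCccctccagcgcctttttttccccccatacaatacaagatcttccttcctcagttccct
CAV2: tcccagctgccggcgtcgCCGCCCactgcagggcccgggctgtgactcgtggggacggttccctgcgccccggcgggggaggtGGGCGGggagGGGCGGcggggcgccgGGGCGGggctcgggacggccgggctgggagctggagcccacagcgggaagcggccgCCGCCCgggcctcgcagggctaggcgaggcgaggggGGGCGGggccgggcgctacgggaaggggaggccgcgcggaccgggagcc
CAVIN2: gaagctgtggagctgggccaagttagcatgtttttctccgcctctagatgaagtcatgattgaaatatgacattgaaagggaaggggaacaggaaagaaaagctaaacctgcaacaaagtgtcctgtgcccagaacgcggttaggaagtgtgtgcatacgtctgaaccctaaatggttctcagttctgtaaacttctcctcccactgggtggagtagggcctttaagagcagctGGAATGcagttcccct
The CAV1 window held 3 GC boxes and the CAV2 window 6, while 42.2% of 27305 promoters of the same length held at least 1. Among the other members, EHD2 had 1, PACSIN2 had 2 and CAV3 had none. The CAVIN2 window held none, and it was the only member window of 6 examined with GGAATG, which 12% of all promoters held. The GC content was 63.6% for CAV1, 83.2% for CAV2 and 48% for CAVIN2, with a median of 57.6% over all promoters. TGANTCA, the letters of AP-1, was found in none of the 6 member windows and in 6.57% of all promoters, and neither CACCTG, an E-box of SNAI and ZEB factors (17.5% of promoters), nor CATATG, an E-box of TWIST factors (2.62%), nor the CArG box of SRF (1.15%) was found. CAGATG, another E-box of TWIST factors, was found in PACSIN2 alone among these 6 and in 12.3% of promoters. No searched motif overlapped another in the printed windows. A match is a description of letters and not a binding site. The promoters of CAVIN1, CAVIN3 and PACSIN3 were not analysed here.

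CAV2 and CAV1 lie side by side on chromosome 7 in the RefSeq gene order, a feature that did not enter the choice of members. The arrays of their nearest protein-coding neighbours were therefore read in order. On the CAV1 side, the next gene, MET, which encodes the receptor of hepatocyte growth factor, had log2 signals of 10.18, 10.15 and 10.23 in SY5Y-TR1, against 5.05, 4.74 and 4.80 in SH-SY5Y. MET was at least 13.1-fold higher (limma, adjusted p = 2.73e-08), with 2 of its 4 probe sets called. With the mean of all 4, its log2 fold change was 1.79 in place of 5.32. The gene after it, CAPZA2, a capping protein of actin filaments, was bright in both lines, at 12.51 ± 0.04 in SY5Y-TR1 against 12.13 ± 0.02 in SH-SY5Y (SD, n = 3), and was not called (log2 fold change 0.38). On the CAV2 side, the next gene ran the other way. TES, which encodes the focal adhesion protein testin, read 8.75, 8.69 and 8.54 in SY5Y-TR1 against 10.44, 10.51 and 10.48 in SH-SY5Y, 3.52-fold lower in SY5Y-TR1 (log2 difference -1.81 ± 0.06 SE, limma adjusted p = 5.80e-07) in 2 of its 3 probe sets. The mean of these 3 gave -1.14, still called. The 3 genes beyond TES, which are TFEC, MDFIC and FOXP2, and WNT2 on the far side of MET lay under the background level on all 6 arrays. ST7, between CAPZA2 and WNT2, was not analysed here. Along this stretch the called increases thus lay in CAV2, CAV1 and MET, next to each other, with a called decrease on one side.

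**Figure D2:**
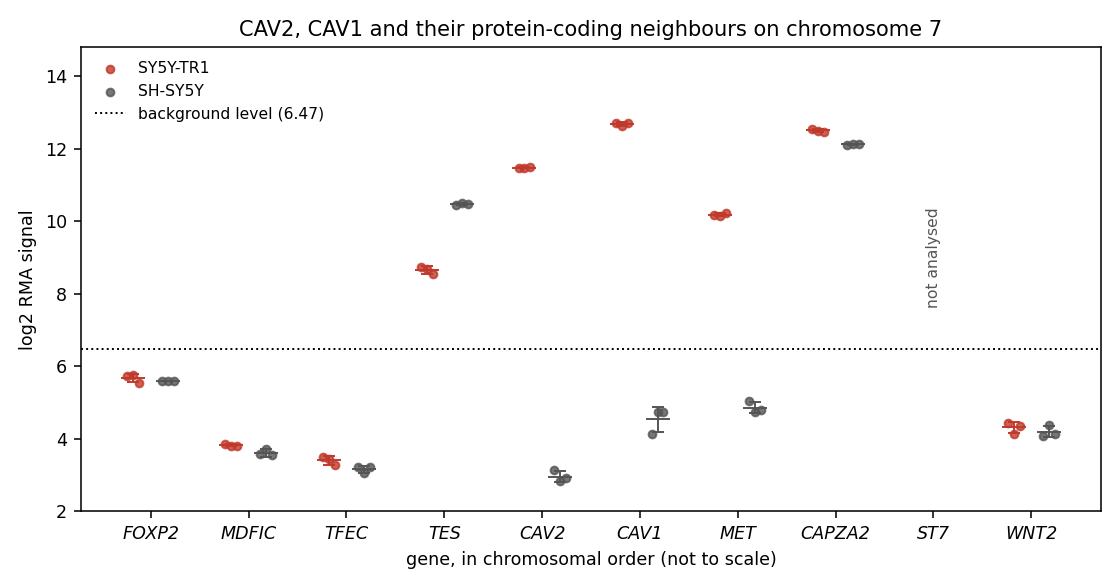
Log2 RMA signal (y axis) of CAV2, CAV1 and the 4 protein-coding genes on each side, in chromosomal order (x axis, not to scale), on the 3 SY5Y-TR1 arrays (red) and the 3 SH-SY5Y arrays (grey), with the mean and SD as bars and the background level of 6.47 as a dotted line. CAV2, CAV1 and MET cross that line between the lines, TES is lower in SY5Y-TR1, and CAPZA2 stays above 12 in both.

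CAVIN1, without which caveolae do not form, was already bright in the parental cells. It read 11.78, 11.80 and 11.64 in SY5Y-TR1 and 10.28, 10.24 and 10.26 in SH-SY5Y, which is 2.80-fold higher in SY5Y-TR1 (log2 difference 1.49 ± 0.05 SE, limma adjusted p = 7.56e-07). Every SY5Y-TR1 array stood at least 1.37 log2 units above every SH-SY5Y array. All 3 CAVIN1 probe sets were called, and the dimmer ones gave 3.16-fold and 3.48-fold. CAVIN1 thus differed from CAV1 and CAV2 in that it was above the background level on all SH-SY5Y arrays.

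CAVIN2, which binds phosphatidylserine and joins CAVIN1 in the coat, read 7.57, 7.72 and 7.57 in SY5Y-TR1 and 6.10, 6.04 and 6.14 in SH-SY5Y. All SY5Y-TR1 arrays were above the background level and all SH-SY5Y arrays under it, so CAVIN2 was at least 2.22-fold higher (fitted log2 difference 1.53 ± 0.06 SE, limma adjusted p = 8.01e-07). The other CAVIN2 probe set differed by 0.93 log2 units (standard error 0.10) and missed the 2-fold limit, with 6.91, 6.67 and 6.54 in SY5Y-TR1 against 5.79, 5.74 and 5.80 in SH-SY5Y.

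CAVIN3, a cavin that binds protein kinase C delta, gave 4.61, 4.78 and 4.39 in SY5Y-TR1 and 3.98, 3.98 and 3.79 in SH-SY5Y through its single probe set. Although the lines did not overlap, all 6 arrays lay under the background level, so no fold is given and no change in CAVIN3 can be read at this signal (log2 fold change 0.67, adjusted p = 0.00138 from limma).

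Of the genes at the neck of the pit, EHD2 and PACSIN2 were higher in SY5Y-TR1 by less than 2-fold. EHD2 read 7.41, 7.25 and 7.25 in SY5Y-TR1 and 6.50, 6.62 and 6.51 in SH-SY5Y, which is 1.69-fold (log2 difference 0.76 ± 0.06 SE, limma adjusted p = 5.02e-05). The SH-SY5Y arrays lay just above the background level. A second EHD2 probe set ran the same way with a log2 fold change of 0.61, and the third lay under the background level in both lines at -0.02. The mean of the EHD2 probe sets gave 0.45.

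PACSIN2 read 10.86, 10.79 and 10.83 in SY5Y-TR1 and 10.13, 10.10 and 10.13 in SH-SY5Y, which is 1.63-fold (log2 difference 0.71 ± 0.04 SE, limma adjusted p = 7.11e-06). Its lines stood 0.66 log2 units apart at the nearest arrays, more than the SD of either line (0.04 in SY5Y-TR1, 0.02 in SH-SY5Y). The other probe set above the background level had a log2 fold change of 0.46, and the third, under it, 0.15. The mean of the PACSIN2 probe sets gave 0.44.

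PACSIN3 was the only member lower in SY5Y-TR1 at an adjusted p under 0.05. It read 7.0, 6.60 and 6.85 in SY5Y-TR1 and 7.39, 7.51 and 7.59 in SH-SY5Y through its single probe set, 1.6-fold lower in SY5Y-TR1 (log2 difference -0.68 ± 0.11 SE, limma adjusted p = 0.00127), and did not reach the 2-fold limit.

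Of the 19 probe sets, 8 were called higher and none lower, where 3.79% of all 54613 probe sets were called higher and 8.37% in either direction. Among the 6 members with several probe sets, all those of CAV1 and CAVIN1 were called, those of CAV2 and CAVIN2 only in part, and those of EHD2 and PACSIN2 not at all. Each member above the background level in SY5Y-TR1 had the same direction in every probe set that was itself above it there.

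**Figure D3:**
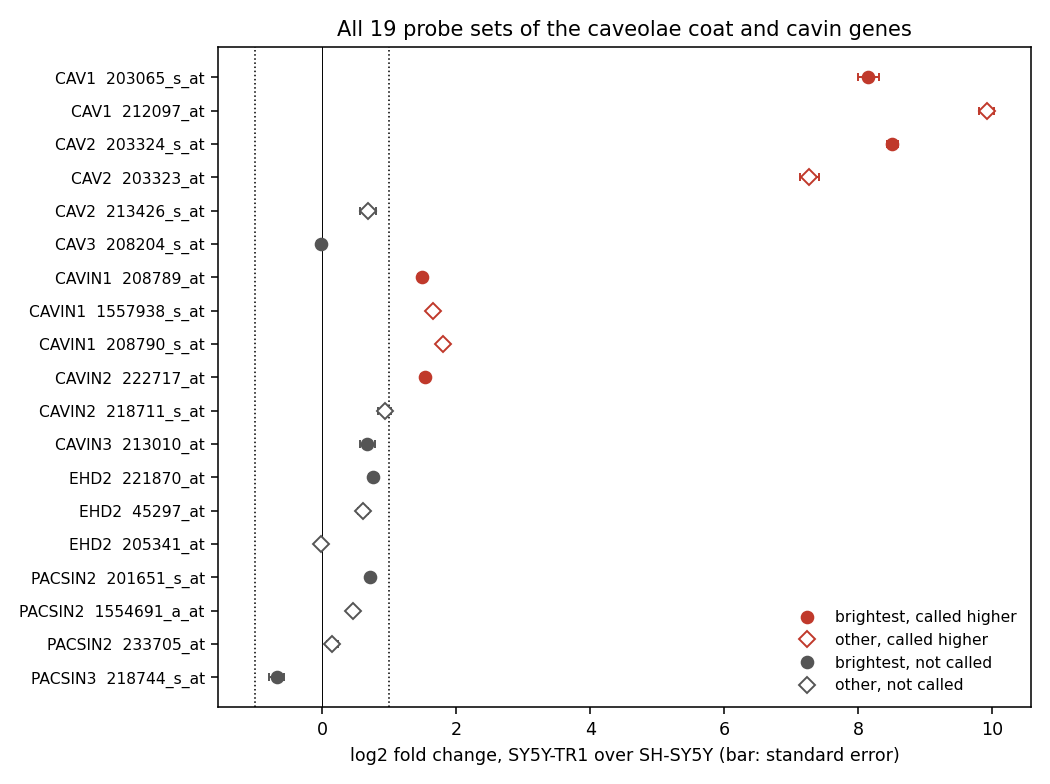
Log2 fold change (x axis, SY5Y-TR1 over SH-SY5Y) of each of the 19 probe sets (y axis), drawn with its standard error over 3 arrays against 3. Circles show the probe set that stands for a gene and open diamonds its others, in red if called higher and in grey if not, with dotted lines at 2-fold. The CAV1 probe sets and 2 of the 3 CAV2 probe sets lie beyond 7, the 3 of CAVIN1 between 1.49 and 1.80.

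Signals of 2 members on the same array were also subtracted from each other, for 4 pairs. Each pair held at least 1 gene under the background level on the SH-SY5Y arrays, so no exact size of a difference is read. The bound for CAV1, at least 74.3-fold, lay above the measured 2.80-fold of CAVIN1 and 1.63-fold of PACSIN2. For CAV1 minus CAV2 and CAVIN1 minus CAVIN3, these values do not settle whether the genes changed by equal amounts. CAV1 minus CAVIN1 was 0.92, 0.82 and 1.08 log2 units on the SY5Y-TR1 arrays and -6.14, -5.51 and -5.51 on the SH-SY5Y arrays, where CAV1 was under that level. For this pair, for CAV1 minus PACSIN2 and for CAVIN1 minus CAVIN3 the lines did not overlap, at a two-sided exact permutation p of 0.1, the smallest that 3 arrays against 3 allow, and 0.133 adjusted over the 4 pairs. CAV1 minus CAV2 was 1.23, 1.17 and 1.24 in SY5Y-TR1. In SH-SY5Y both genes lay far under the background level, so this pair is given no comparison.

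The genes nearest to CAV1 in pattern were sought among the 10982 genes above the background level on every array of at least 1 line, by the Euclidean distance between log2 signals over the 6 arrays after each gene was centred on its mean. They were ARHGAP18 at a distance of 0.428, DCBLD1, a transmembrane protein gene, at 0.516, and CAV2 at 0.834. ARHGAP18 and DCBLD1 were at least 33-fold and 59.9-fold higher in SY5Y-TR1. For CAVIN1 they were the growth factor gene FGF2 at 0.054, the heparan sulfate proteoglycan gene SDC4 at 0.0689 and the zinc-finger gene ZNF226 at 0.0914, with log2 fold changes of 1.5, 1.53 and 1.51. These distances compare 6 arrays of 2 lines, so they compare chiefly the size of the difference between the lines, and CAV1, CAV2, ARHGAP18 and DCBLD1 all lay under the background level in SH-SY5Y. ZNF226 was called in its brightest probe set, but its log2 fold change was 0.22 with the mean of all its probe sets and -0.09 among probe sets without shared-sequence names.

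Outside the coat, the genes of the caveolar neck, of scission and of the link to the cytoskeleton moved in both directions, with 2 of 15 measured genes called higher, 2 lower and 11 not called. Their median log2 fold change was 0.21. DNM3, a dynamin, the family that pinches off vesicles, was at least 4.13-fold higher, at 8.52 ± 0.11 in SY5Y-TR1 against 6.10 ± 0.33 in SH-SY5Y (SD, n = 3), and all 3 of its probe sets were called (limma adjusted p = 1.3e-05). EHD3, an ATPase related to EHD2, was 2.85-fold higher, at 10.22 ± 0.05 in SY5Y-TR1 against 8.71 ± 0.05 in SH-SY5Y (SD, n = 3), but missed the limit with the mean of its probe sets (log2 fold change 0.92). The pseudokinase receptor gene ROR1, whose product has been described to hold CAV1 and CAVIN1 together, was 2.71-fold lower, at 8.41 ± 0.06 in SY5Y-TR1 against 9.85 ± 0.04 in SH-SY5Y (SD, n = 3), and also missed it with that mean (-0.98). CAVIN4, the cavin of muscle, lay close to the background level, at 5.22 ± 0.11 in SY5Y-TR1 against 6.66 ± 0.13 in SH-SY5Y (SD, n = 3), and its call was lost with values raised to that level (-0.19).

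Among 14 kinases and partners of caveolin-1 and the cavins, LYN was the only gene called with all arrays in the fit. That is 7.14% of the list, against 11.4% of all genes. Among the others, 2 were called higher without SY5Y-TR1 replicate 1 and 1 without SY5Y-TR1 replicate 3, SH-SY5Y replicate 1 or SH-SY5Y replicate 2, and PTPN14, a phosphatase gene, lay just under the limit at 1.95-fold higher. LYN, an SRC-family kinase, was 4.93-fold lower, at 8.36, 8.28 and 8.30 in SY5Y-TR1 and 10.62, 10.58 and 10.64 in SH-SY5Y, through all 3 of its probe sets (limma adjusted p = 4.47e-08). The list's median log2 fold change was -0.09. Of 13 genes of the lipid supply, 2 (15.4%) were called higher and none lower, with a median of 0.51. SGMS2, which makes sphingomyelin at the plasma membrane, was 2.84-fold higher at 10.24 ± 0.02 in SY5Y-TR1 against 8.74 ± 0.10 in SH-SY5Y (SD, n = 3), and ABCA1, the exporter of cholesterol, was called with a log2 fold change of 1.66 although its signals lay about the background level in SY5Y-TR1 (6.32 ± 0.29, SD, n = 3) and under it in SH-SY5Y (4.67 ± 0.15, SD, n = 3). The ABCA1 call was lost with values raised to that level (0.01) and with the mean of its probe sets (0.93).

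Other membrane coats and scaffolds were read beside the 11.4% of all genes called. None of 9 flotillin and stomatin scaffold genes was called, with a median log2 fold change of -0.01, and the brightest, ERLIN1, stood at 0.15. None of 7 genes of caveolin turnover was called, and the brightest, the chaperone gene HSPA5, stood at 0.88. Of 24 clathrin coat genes, which build the other main endocytic coat, 2 (8.33%) were called lower and none higher, with a median of 0.26. HIP1, which links clathrin to actin, was 2.70-fold lower, but not with the mean of its probe sets (log2 fold change -0.71), and SNAP91, the clathrin adaptor of synapses, was at 4.05 ± 0.13 in SY5Y-TR1 against 6.53 ± 0.41 in SH-SY5Y (SD, n = 3), close to the background level in SH-SY5Y, and lost its call with values raised to it (-0.19). These lists differ in size and were not tested against each other or against the caveolar genes.

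**Figure D4:**
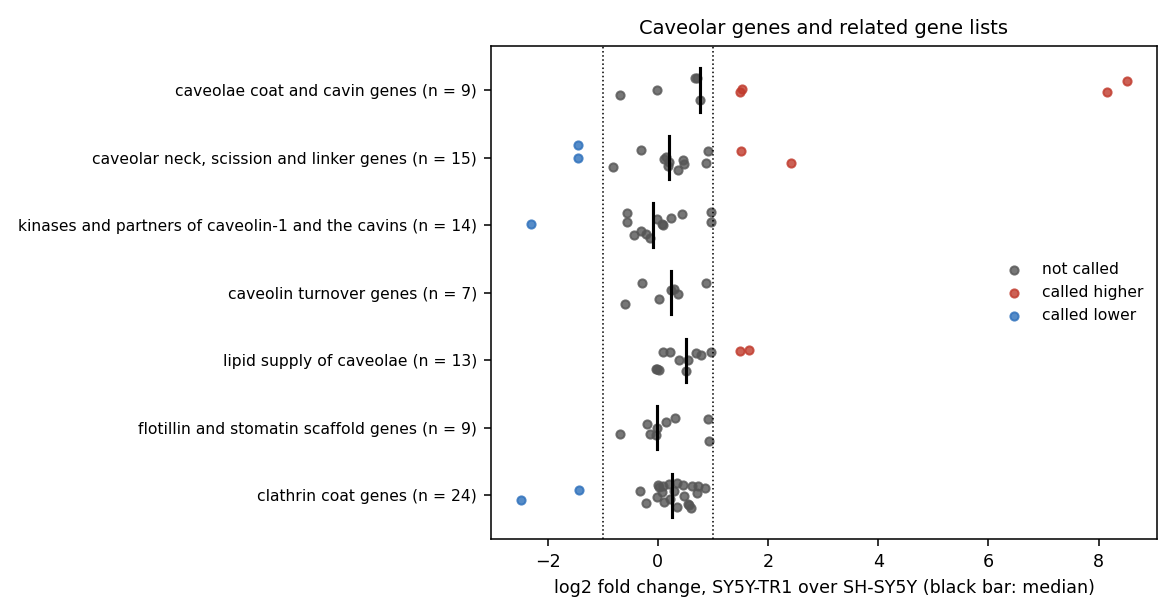
Log2 fold change (x axis, SY5Y-TR1 over SH-SY5Y) for the measured genes in the caveolae coat and cavin set and in 6 related lists (y axis, with the number measured). Points are genes, coloured red if called higher, blue if called lower and grey otherwise, black bars are list medians, and the dotted lines stand at 2-fold. CAV1 and CAV2 stand alone beyond 8, and the medians run from -0.09 to 0.76.

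Markers of cell types rich in caveolae were read beside these results, and beside the 11.4% of all genes called. None of 9 adipocyte markers was above the background level on every array of either line, and none of the 9 was called through its brightest probe set. CD36 had 3 of its 5 probe sets called higher, although its brightest, at 5.14 ± 0.06 in SY5Y-TR1 against 5.22 ± 0.21 in SH-SY5Y (SD, n = 3), was not. Of 13 muscle markers, TNNT1 alone was above the background level on every SY5Y-TR1 array, and it was called at least 2.79-fold higher. None was above that level on every SH-SY5Y array, although ACTG2 was on 2 of them. Of 10 endothelial markers, ROBO4 alone was above it on every SY5Y-TR1 array, at least 2.51-fold higher with 1 of its 2 probe sets called. None was above it on every SH-SY5Y array. The defining genes PECAM1, CDH5, VWF and KDR lay under it on all 6 arrays. The summed signal of the endothelial markers ran from 9.01 to 9.04 on the log2 scale in SY5Y-TR1 and from 8.17 to 8.34 in SH-SY5Y. Of the genes in this sum only ROBO4, at 7.80 ± 0.06 in SY5Y-TR1 against 5.19 ± 0.11 in SH-SY5Y (SD, n = 3), was above the background level in a line. Of 11 fibroblast markers, 8 were above the background level on every SY5Y-TR1 array and 9 on every SH-SY5Y array, with 5 called higher and 3 called lower. Their summed signal ran from 14.81 to 14.92 in SY5Y-TR1 and from 13.76 to 13.84 in SH-SY5Y. The sum adds different probe sets, and its brightest genes in SY5Y-TR1 were the collagens COL3A1, at 13.74 in SY5Y-TR1 against 13.17 in SH-SY5Y and not called, and COL1A1, at 13.45 in SY5Y-TR1 against 9.72 in SH-SY5Y. The markers did not run one way. COL1A1 (3 of its 5 probe sets called), PDGFRB (1 of 1), THY1 (3 of 3), FAP (1 of 1) and S100A4 (1 of 1) were called higher. LUM was 4.04-fold lower (1 of its 2 probe sets called), PDGFRA 4.44-fold lower (1 of 4) and DCN at least 4.47-fold lower (4 of 7). With the mean of all probe sets 5 were called higher and 2 lower, and among probe sets without shared-sequence names 2 higher and 2 lower. Of 11 noradrenergic markers 6 were called lower and none higher, and their summed signal ran from 12.04 to 12.10 in SY5Y-TR1 and from 14.03 to 14.09 in SH-SY5Y. Of 6 Schwann cell markers 1, GFRA3, was called lower and none higher. GFRA3 lay close to the background level, at 5.39 ± 0.10 in SY5Y-TR1 against 6.52 ± 0.22 in SH-SY5Y (SD, n = 3), and its call was lost with the mean of its probe sets, among genes above the background level in a line and with values raised to that level. None of these 6 and none of 7 blood cell markers was above the background level on every array of either line. The part of the fibroblast and noradrenergic markers in the caveolar values was not tested.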

How the data were processed

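RNA of SY5Y-TR1 and SH-SY5Y was measured on 3 Affymetrix U133 Plus 2.0 arrays per line. The signals are log2 values as the authors deposited them, from RMA in Affymetrix Expression Console (per the submitters' processing notes; version not given in the sources used here). RMA subtracts a modelled background, brings all arrays to a common distribution of values and combines the probes of a probe set, which can compress large differences at low signal. Scanner files were not used here. The number of arrays limits the precision.

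After 62 control probe sets were left out, 54613 remained, of which 41091 carried 1 symbol, 1801 several and 11721 none. Symbols were updated by gene ID through a RefSeq table of GRCh38.p14 (41037 matched). Probe sets with several symbols name no gene here. A linear model with moderated variances (limma 3.58.1, R 4.3.3) was fitted to 19775 genes without a replicate block. Adjustment after Benjamini-Hochberg ran over all genes, and in the separate fit of probe sets over all of those. The limits follow the study's heatmap legend. The methods' t-test, a Student's test, was an alternative.

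Replicate numbers in the titles do not pair the arrays: deviations of same-numbered arrays from their line's mean correlated at 0.000, 0.021 and 0.030 across genes. No arrays held identical values.

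The members and lists were chosen with earlier results of these data known. Named genes are the members, the 4 largest called changes of each related list or its brightest gene where none was called, 4 neighbours on each side of CAV2 and CAV1, and the 3 genes nearest to CAV1 and to CAVIN1. PTPN14 and all single genes of the marker lists were named after their values were seen. Alternatives covered the probe sets, scaling, dim values, variance, limits, the test and each array.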

Additional observations from a re-analysis of the deposited data

How the results depend on the processing

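CAV1, CAV2, CAVIN1 and CAVIN2 were called higher under each of 18 alternatives, with log2 fold changes of 6.21 to 9.92, 5.0 to 8.60, 1.43 to 1.65 and 1.15 to 1.55. Called members numbered 4 higher and 0 lower in all fits that kept the 2-fold limit. At a limit of 1.5-fold, 7 members were higher and 1 lower, against 2171 higher and 2162 lower of all 19775 genes. The 7 include CAVIN3, which lay under the background level on all 6 arrays. With no fold limit the members were again 7 and 1, and all genes 5634 (28.5%) and 4813. Leaving out each array in turn gave 4 higher and 0 lower members, and 1030 to 1082 higher and 1172 to 1206 lower genes. With the replicate block, 1060 genes were higher and 1185 lower, and the block changed no call of a member. CAV3 ran from -0.05 to 0.02 when arrays were left out and turned positive without SY5Y-TR1 replicate 2 (0.02). ZNF226 turned to -0.09 among probe sets without shared-sequence names, and CAV1 minus CAV2, with both genes under the background level in SH-SY5Y, turned from -0.36 to 3.55 with the mean of all probe sets. Centring on 26 housekeeping genes moved the median log2 fold change of all genes from 0.04 as deposited to -0.02. The background level was 5.20 at the 75th percentile of the unrelated genes and 6.97 at the 95th, and the least folds were then 180 and 52.7 for CAV1 and 77.6 and 22.7 for CAV2. For CAVIN2 the least fold was 1.57 at the 95th percentile. Of 468 counts for related lists and markers under alternatives, 423 equalled the main count or stayed within 1.5 times, and 45 moved. Counts of 0 in both fits, as for adipocyte and blood cell markers, are among the 423, so that share is no measure of robustness. Signals under the background level limit CAV3 and CAVIN3.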
